A study of Mus musculus with 10 samples.

Results

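The uncoupling proteins and the ADP/ATP carriers are members of the mitochondrial carrier family, and 8 of their genes were followed here in the mouse hippocampus. They were Ucp1, Ucp2, Ucp3, Slc25a27 (which encodes UCP4), Slc25a14 (UCP5), Slc25a30 (the kidney mitochondrial carrier protein KMCP1), Slc25a4 (the ADP/ATP carrier ANT1) and Slc25a5 (ANT2). The genes were chosen by name, and every gene probe on the array whose transcript accession belongs to 1 of them was taken, whatever it measured. This gave 14 probes of 8 genes, out of 23462 named genes on the array. Of these, 10 probes of 6 genes could be tested.

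The arrays compared the hippocampus of nPGC-1α mice with that of PGC-1αf/f mice in basal conditions, with 5 mice per group and 1 array per mouse. PGC-1αf/f mice carry a PGC-1α transgene in the Rosa26 locus behind a floxed PGK-neo-STOP cassette, and without Cre the cassette stays in place. In nPGC-1α mice, which are PGC-1αf/f mice crossed with Eno2-Cre mice, the Cre is driven by the promoter of the neuronal gene Eno2 and removes the cassette in neurons. All mice were on the C57BL/6 background, and the labels give each as a male of 12 weeks. The question put by this comparison was which hippocampal transcripts differ when neurons carry additional PGC-1α.

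Mitochondrial carriers sit in the inner mitochondrial membrane and move metabolites across it. The ADP/ATP carriers bring ADP into the matrix and let newly made ATP out, so every cell that respires depends on them. UCP1 lets protons return to the matrix without ATP being made, which produces heat in brown fat. UCP2 and UCP3 are close relatives of UCP1 with more debated transport activities, UCP2 being widely expressed, in immune cells among others, and UCP3 mainly in skeletal muscle and brown fat. UCP4 and UCP5 are known as the neuronal uncoupling proteins. PGC-1α is a transcriptional coactivator that was first described through its action on the Ucp1 gene in brown fat. It works through nuclear receptors such as the PPARs and the estrogen-related receptors, whose DNA sites are built around the letters AGGTCA.

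Several features of the arrays bear on dim probes and are given first. The share of gene spots that Feature Extraction called well above background was 79.0% ± 2.79 in PGC-1αf/f and 71.2% ± 2.57 in nPGC-1α mice (SD, n = 5 each), without overlap (exact permutation test, two-sided, p = 0.00794, the smallest that 5 against 5 arrays can give, adjusted p = 0.0198 over 5 array measures). On the log2 scale used below, the lowest level of any probe well above background ranged from -7.51 to -6.56 in PGC-1αf/f and from -6.62 to -5.75 in nPGC-1α mice. Of the tested probes in the dimmest of 10 equal brightness classes, 23.4% were lower in nPGC-1α mice at an unadjusted p of 0.05 and 1.63% were higher. Slide 1 held replicates 1 to 4 of both groups, with the PGC-1αf/f samples in row 1 and the nPGC-1α samples in row 2, where group and row of the slide cannot be told apart. Samples of the same number shared a column there. Slide 2 held replicate 5 of both groups. Transcripts of all 4 Y-linked genes looked at (Ddx3y, Eif2s3y, Kdm5d and Uty) were well above background on 4 arrays (1 PGC-1αf/f and 3 nPGC-1α). On the other 6 (4 PGC-1αf/f and 2 nPGC-1α) none was, except that 1 of the Eif2s3y probes was so on PGC-1αf/f replicate 2, at -6.16 against 1.18 to 1.43 on the 4 arrays, which goes against the labelled sex. Xist, the RNA of the inactive X chromosome, lay at -5.80 to -4.91 on the 4 arrays and at -3.28 to -2.43 on 5 of the 6, but at -5.34 on PGC-1αf/f replicate 5, which thus showed neither pattern and is counted below with the arrays without Y-linked transcripts. The labels also give the cell type as neuron, but the markers of astrocytes (5 of 5), oligodendrocytes (5 of 5), microglia and macrophages (6 of 6) and endothelial cells (4 of 4) were well above background on all arrays, as were those of neurons (5 of 5). In such tissue RNA, fewer cells of a type and less RNA per cell cannot be told apart. Ppargc1a itself lay at 2.06 to 2.34 on all 10 arrays by its tested probe A_51_P279038, with a difference between groups of 0.00 ± 0.09 (SE, n = 5 per group, limma adjusted p = 0.990), and whether this probe can read the transgene is not given in the sources used here.

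A level in what follows is the log2 of a probe's processed intensity minus the log2 of the 75th percentile of its array, so that 0 is the 75th percentile and each step of 1 is a doubling. A difference is the mean level in nPGC-1α mice minus that in PGC-1αf/f mice. Probes differ in how well they bind and label, so no level is set against that of another gene.

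No probe of the 8 genes passed the threshold. Under limma with Benjamini-Hochberg adjustment over all 39142 tested probes, 0 of the 10 tested probes had an adjusted p below 0.05 (range 0.386 to 0.928), where 0.00255% of all tested probes, that is 1 probe, did. At an unadjusted p of 0.05, 2 of the 10 probes (20%) were higher in nPGC-1α mice, 1 of Ucp2 and 1 of Slc25a27, and none was lower. Of all tested probes, 11.9% reached that mark, 3.39% higher and 8.52% lower. These shares depend on the filter on dim probes. Without it 12.4% of all probes were higher and 7.18% lower, and 2 of 12 member probes reached the mark. An exact Mann-Whitney test called 0 of the 10 probes at 0.05. Within slide 1, 1 of 9 testable member probes reached the unadjusted mark, that of Slc25a27, where 12.3% of all probes did. Over the 6 arrays without Y-linked transcripts it was 1 of 11, again of Slc25a27, where 4.86% of all probes did, and over the 4 arrays with them it was 1 of 9, of Ucp2, where 12% did. With the presence of these transcripts as a block it was 1 of 10, of Ucp2, where 11.2% of all probes did. The median difference of the 10 probes was 0.14, beside -0.04 for all tested probes, with 7 probes above 0 and 3 below; with quantile normalisation 9 were above 0 and 1 below, since 1 probe each of Slc25a30 and Slc25a4 changed sign. In no member probe did the groups stand apart without overlap. Of the 34000 tested probes with all values 2.74% did so, and with only 9 such member probes a count of 0 is no contrast to that share.

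**Figure D1:**
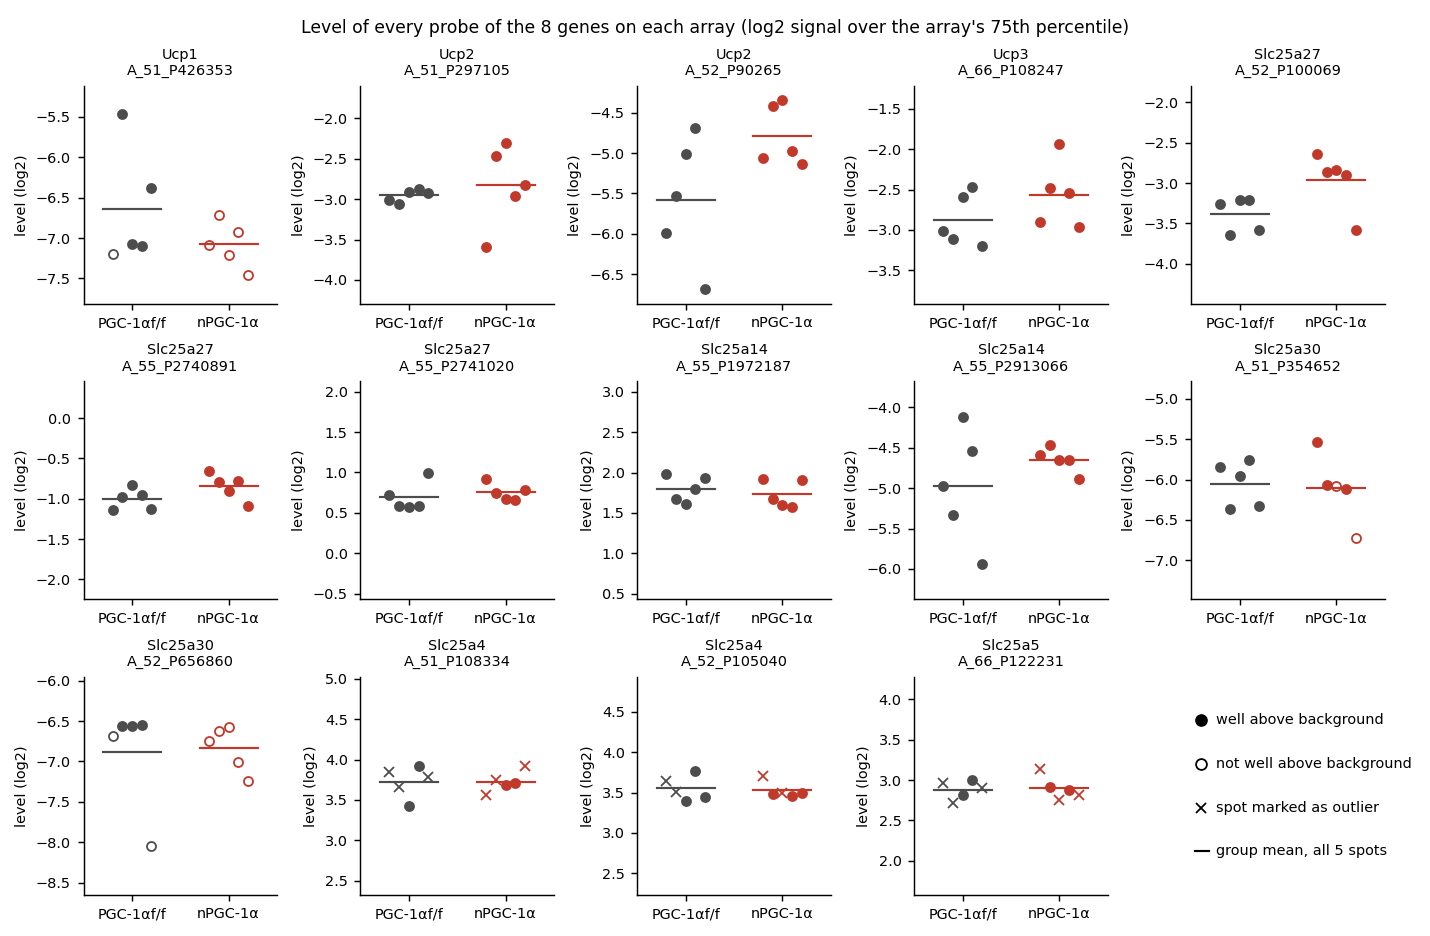
Level of each of the 14 probes on each of the 10 arrays, in log2 over the array's 75th percentile, with PGC-1αf/f in grey and nPGC-1α in red, and replicates 1 to 5 from left to right within a group. Filled points are well above background, open points are not, crosses are spots marked as outliers, and the line is the mean of all 5 spots. All panels span the same 2.7 log2 units. The largest gap between group means is that of Ucp2 A_52_P90265, where the groups still overlap.

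Ucp2 was read by 2 probes of the same transcript. On probe A_52_P90265 the PGC-1αf/f levels were -5.99, -5.54, -5.01, -4.68 and -6.69 for replicates 1 to 5, and the nPGC-1α levels were -5.07, -4.42, -4.35, -4.97 and -5.14. All 5 nPGC-1α samples lay above the PGC-1αf/f mean, but PGC-1αf/f replicates 3 and 4 lay among them. The means were -5.58 ± 0.79 and -4.79 ± 0.38 (SD, n = 5 each), a difference of 0.79 with a 95% interval of 0.04 to 1.55, or 1.73-fold, which did not pass the adjusted threshold (limma adjusted p = 0.401).
On probe A_51_P297105 the PGC-1αf/f levels were -3.01, -3.06, -2.91, -2.87 and -2.93, and the nPGC-1α levels were -3.59, -2.47, -2.30, -2.96 and -2.82. The control samples were within 0.2 of each other here, while the nPGC-1α samples spread on both sides of them, replicate 1 below all and replicates 2, 3 and 5 above all. The difference was 0.12 ± 0.20 (SE, limma adjusted p = 0.829), and it was 0.31 without nPGC-1α replicate 1 (adjusted p = 0.415) and -0.01 without nPGC-1α replicate 3.

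The value of the first Ucp2 probe rested in part on PGC-1αf/f replicate 5, the lowest of its group. Without that array the difference was 0.51 (limma adjusted p = 0.447), within slide 1 it was 0.60 (adjusted p = 0.443), and between the replicate 5 arrays of slide 2 it was 1.55. It was 1.14 over the 4 arrays with Y-linked transcripts, of which only 1 was PGC-1αf/f. Over the 6 without (4 PGC-1αf/f and 2 nPGC-1α) it was 0.78 (limma adjusted p = 0.961). With all levels raised to the highest floor of any array it was 0.55 (adjusted p = 0.476). With normexp background correction (offset 50) followed by quantile normalisation it was 0.43 (adjusted p = 0.384). The unadjusted limma p was 0.0326 in the latter, against 0.0417 as reported. Over all alternatives its adjusted p ranged from 0.184 to 0.961. Microglia and macrophages are cells in which Ucp2 is known to be expressed. The summed level of their markers, on a linear scale where 1 is the array's 75th percentile, was 15.1 to 17.99 in PGC-1αf/f and 13.9 to 14.9 in nPGC-1α mice (6 of 6 markers well above background on all arrays, exact permutation test, two-sided, p = 0.00794, 1 of 10 marker lists looked at, no adjustment over them). Singly, 1 of their 5 tested markers reached an unadjusted p of 0.05, Tmem119 at -0.21 ± 0.09 (SE, limma adjusted p = 0.407), where 11.9% of all tested probes did. Aif1 and Csf1r were also below 0, at -0.30 ± 0.17 and -0.14 ± 0.08. Cd68 went the other way, at 0.19 ± 0.10, and Cx3cr1 was at 0.00 ± 0.08. The part of these markers in the Ucp2 result was not tested.

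Ucp3 was read by 1 probe, A_66_P108247. Its PGC-1αf/f levels were -3.01, -3.11, -2.59, -2.46 and -3.19 and its nPGC-1α levels -2.90, -2.47, -1.93, -2.54 and -2.96. The groups overlapped, with nPGC-1α replicate 3 above all other samples and PGC-1αf/f replicates 1, 2 and 5 below all nPGC-1α samples. The difference was 0.31 ± 0.21 (SE, n = 5 per group, limma adjusted p = 0.581), with a 95% interval of -0.15 to 0.78. It was 0.16 without nPGC-1α replicate 3 and between 0.23 and 0.42 when any other array was left out. Of 4 markers of skeletal muscle, a tissue known for Ucp3, 3 were well above background on all arrays. The summed level of all 4 was 0.641 to 1.24 in PGC-1αf/f and 0.917 to 1.33 in nPGC-1α mice (exact permutation test, two-sided, p = 0.143). Singly, 2 of their 3 tested markers reached an unadjusted p of 0.05, where 11.9% of all tested probes did. They were Acta1 at 0.60 ± 0.26 and Myh4 at 0.56 ± 0.21 (SE, limma adjusted p = 0.418 and 0.331), and Tnnt3 was at -0.16 ± 0.10. The part of these muscle markers in the Ucp3 result was not tested.

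Over the 10 arrays, Ucp3 and the Ucp2 probe A_52_P90265 went up and down together. The correlation was r = 0.834 (permutation p = 0.0033) and rho = 0.976 (permutation p = 4e-05). Over the 36 pairs of the 9 member probes tested with all values, a family looked at after the values were seen, the adjusted p was 0.057 for r and 0.00144 for rho. It was the only pair with an adjusted p below 0.05 in either measure. The permutations shuffled all 10 arrays without regard to group or slide. How often 2 probes of other genes reach such values on these arrays was not counted. Without the 2 arrays farthest from the median of the Ucp2 probe (PGC-1αf/f replicates 1 and 5), r was 0.895. It was 0.861 on slide 1 and 0.796 after each group's mean was subtracted. The other Ucp2 probe followed A_52_P90265 less closely, at r = 0.421 and rho = 0.636 (permutation p = 0.220 and 0.0543, adjusted 0.330 and 0.169). With Ucp3, this other probe gave r = 0.653 and rho = 0.624 (permutation p = 0.0456 and 0.0597, adjusted 0.139 and 0.169). The differences between these correlations were not tested. Slc25a14 A_55_P2913066 was as close to the Ucp2 probe A_52_P90265 by r, at 0.821, with rho = 0.709 (permutation p = 0.00475 and 0.0264, adjusted 0.057 and 0.169). Here r was 0.494 without the 2 arrays farthest from the median of the Slc25a14 probe, which were PGC-1αf/f replicates 2 and 5. All points share the scaling of their array.

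**Figure D2:**
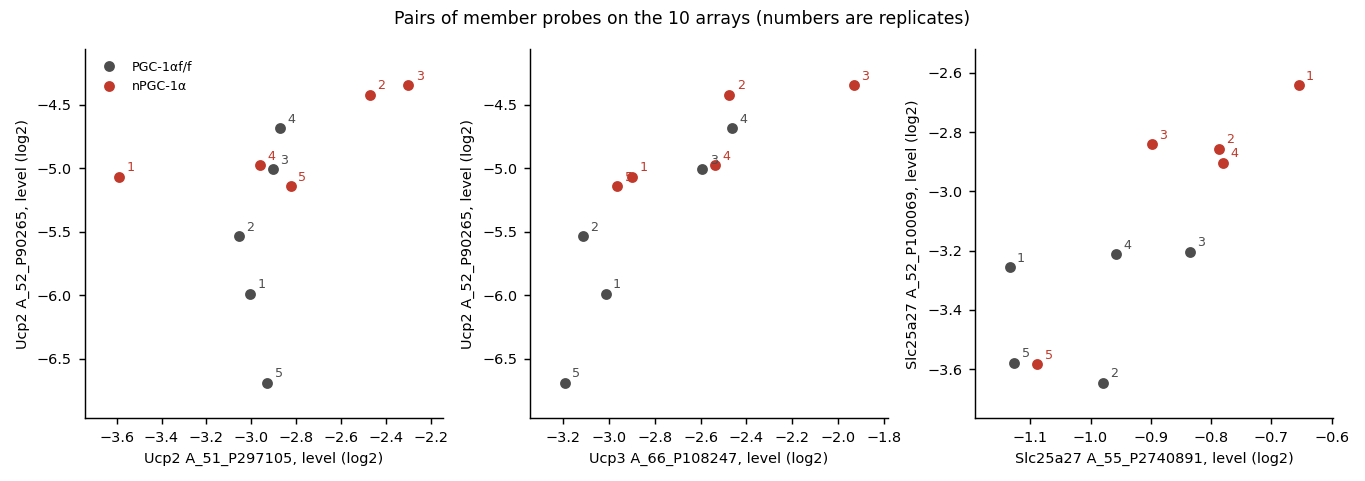
Levels of 3 pairs of probes on the 10 arrays, in log2 over the array's 75th percentile on both axes, with PGC-1αf/f in grey and nPGC-1α in red and the replicate number beside each point. From left to right the pairs are both Ucp2 probes (r = 0.421), Ucp3 and Ucp2 A_52_P90265 (r = 0.834), and the Slc25a27 probes A_55_P2740891 and A_52_P100069 (r = 0.822).

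In RefSeq's order of genes Ucp3 and Ucp2 are direct neighbours on chromosome 7, with 0 genes between them, and both are read from the plus strand. Their promoters are shown because this pair of probes had the highest correlation among the member probes. Each is the 250 bases before the start of the gene (RefSeq, GRCm38.p6, plus strand), at chr7:100472741-100472990 for Ucp3 and at chr7:100493108-100493357 for Ucp2, and capitals mark AGGTCA.
Ucp3: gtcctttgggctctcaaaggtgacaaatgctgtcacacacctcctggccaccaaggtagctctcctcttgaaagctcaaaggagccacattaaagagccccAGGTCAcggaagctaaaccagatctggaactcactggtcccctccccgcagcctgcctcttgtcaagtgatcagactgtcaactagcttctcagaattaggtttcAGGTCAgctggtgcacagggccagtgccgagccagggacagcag
Ucp2: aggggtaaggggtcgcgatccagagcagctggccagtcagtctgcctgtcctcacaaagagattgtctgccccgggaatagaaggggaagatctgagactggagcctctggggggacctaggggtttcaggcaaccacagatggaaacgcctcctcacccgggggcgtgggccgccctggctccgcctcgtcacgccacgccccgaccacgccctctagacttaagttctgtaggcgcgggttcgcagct
AGGTCA was searched on both strands. The Ucp3 window held it 2 times, starting 149 and 44 bases before the start of the gene, and the Ucp2 window did not hold it. Of the 7 members with a promoter entry (9 windows), the other match was in Ucp1, 14 bases before the start, at chr8:83290098-83290347 on the plus strand. Of all 32851 promoter windows of this length, 14.0% held AGGTCA. The longer letters TCAAGGTCA, bound by estrogen-related receptors and overlapping the shorter motif, were in 0.387% of all windows and in none of the members' windows. Slc25a27 had no entry.

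Ucp1, the brown fat uncoupling protein, was read by 1 probe, A_51_P426353, at the edge of detection. The PGC-1αf/f levels were -7.20, -5.47, -7.07, -7.09 and -6.38, well above background on 4 of 5 arrays. The nPGC-1α levels were -7.09, -6.71, -7.21, -6.93 and -7.46, and none of the 5 was well above background. The nPGC-1α value is therefore only a bound, and since the floor of the nPGC-1α arrays, a mean of -6.26, lay above the PGC-1αf/f mean of -6.64, no fold can be given and the probe was not tested. Of 4 further brown fat markers, 3 were well above background on all arrays. The summed level of all 4 was 2.95 to 3.56 in PGC-1αf/f and 3.13 to 3.95 in nPGC-1α mice, though Cidea and Prdm16 among them have roles outside brown fat too.

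Slc25a27, the gene of the neuronal protein UCP4, was read by 3 probes of 1 transcript. On probe A_52_P100069 the PGC-1αf/f levels were -3.26, -3.65, -3.20, -3.21 and -3.58, and the nPGC-1α levels were -2.64, -2.86, -2.84, -2.90 and -3.58. In nPGC-1α mice replicates 1 to 4 lay above every control, and replicate 5 lay with the lowest controls. The means were -3.38 ± 0.22 and -2.97 ± 0.36 (SD, n = 5 each), a difference of 0.41 with a 95% interval of 0.03 to 0.80, or 1.33-fold, which did not pass the adjusted threshold (limma adjusted p = 0.386).

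The other probes of Slc25a27 lay higher in nPGC-1α mice by smaller steps. On A_55_P2740891 the PGC-1αf/f levels were -1.13, -0.98, -0.83, -0.96 and -1.13 and the nPGC-1α levels -0.65, -0.79, -0.90, -0.78 and -1.09, a difference of 0.17 ± 0.10 (SE, limma adjusted p = 0.553). On A_55_P2741020 they were 0.72, 0.59, 0.57, 0.58 and 0.99 against 0.92, 0.74, 0.67, 0.65 and 0.79, a difference of 0.06 ± 0.10 (adjusted p = 0.833). The 95% interval on this probe ran from -0.17 to 0.29. The first 2 probes followed each other over the arrays at r = 0.822 and rho = 0.794 (permutation p = 0.00473 and 0.00864, adjusted 0.057 and 0.156), with r = 0.817 without the 2 farthest arrays and 0.723 on slide 1. The third followed neither over all arrays, at r = 0.03 and -0.11 (rho = 0.07 and -0.14, permutation p = 0.942 and 0.767 for r, 0.867 and 0.705 for rho, adjusted 0.969 and 0.863, 0.892 and 0.769), but on slide 1 alone r was 0.699 and 0.482.

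Slide 2 held 1 array per group, so whether the slides differed for this gene cannot be told. Probe A_52_P100069 differed by 0.52 within slide 1 (limma adjusted p = 0.222) and by -0.00 between the replicate 5 arrays of slide 2, and without nPGC-1α replicate 5 the difference was 0.57 (adjusted p = 0.201, the lowest of its alternatives, which reached up to 0.901). Over the 6 arrays without Y-linked transcripts (4 PGC-1αf/f and 2 nPGC-1α) it was 0.53 (adjusted p = 0.901). Over the 4 arrays with them, of which only 1 was PGC-1αf/f, it was 0.23.

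Slc25a14, the gene of UCP5, was read by 2 probes of different transcripts. On A_55_P1972187, of transcript NM_001290703, the PGC-1αf/f levels were 1.99, 1.67, 1.61, 1.79 and 1.93 and the nPGC-1α levels 1.92, 1.68, 1.59, 1.58 and 1.91. The groups covered the same range, and the difference was -0.06 ± 0.11 (SE, limma adjusted p = 0.843), with a 95% interval of -0.31 to 0.18. The gene lies on the X chromosome. With the presence of Y-linked transcripts as a block, the difference on this probe was -0.15 (limma adjusted p = 0.607). On A_55_P2913066, of transcript NM_011398, the PGC-1αf/f levels were -4.97, -5.33, -4.12, -4.54 and -5.93 and the nPGC-1α levels -4.59, -4.47, -4.66, -4.65 and -4.88. Here the controls spread on both sides of the tightly grouped nPGC-1α samples, and the difference of 0.33 ± 0.28 (SE, limma adjusted p = 0.664) was 0.09 without PGC-1αf/f replicate 5 and 0.54 without PGC-1αf/f replicate 3 (adjusted p = 0.880 and 0.356). Over the arrays the 2 probes went in opposite directions, at r = -0.461 and rho = -0.394 (permutation p = 0.186 and 0.264, adjusted 0.305 and 0.437), and r was -0.17 without the 2 farthest arrays.

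Slc25a30, whose protein KMCP1 is known from kidney mitochondria, was near the floor on both of its probes. On A_51_P354652 the PGC-1αf/f levels were -5.84, -6.36, -5.95, -5.76 and -6.33, all well above background, and the nPGC-1α levels were -5.54, -6.07, -6.08, -6.12 and -6.73, of which 3 were. The difference was -0.06 ± 0.20 (SE, limma adjusted p = 0.928), and it turned to 0.04 with quantile normalisation. On A_52_P656860, levels of -8.05 to -6.55 in PGC-1αf/f and -7.24 to -6.57 in nPGC-1α mice were well above background on 3 and 0 of 5 arrays, so no fold can be given.

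The ADP/ATP carriers were far above background on every array. Slc25a4, the form of heart, muscle and brain, was read by A_52_P105040 with levels of 3.65, 3.51, 3.40, 3.77 and 3.44 in PGC-1αf/f mice and of 3.71, 3.48, 3.49, 3.46 and 3.50 in nPGC-1α mice. Of these spots, 2 in each group were marked as outliers and left out, and the difference over the other 3 per group was -0.06 ± 0.14 (SE, limma adjusted p = 0.895), with a 95% interval of -0.39 to 0.28. With all spots kept it was -0.03 with a 95% interval of -0.24 to 0.19, and in the authors' log2 values it was 0.08.
The other Slc25a4 probe, A_51_P108334, and the only probe of the widely expressed Slc25a5, A_66_P122231, were marked as outliers on 6 of 10 arrays and were not tested. With all spots kept, Slc25a4 lay at 3.73 ± 0.19 and 3.72 ± 0.13 (SD, n = 5 each), a difference of -0.00 with a 95% interval of -0.25 to 0.24. Slc25a5 lay at 2.88 ± 0.11 and 2.90 ± 0.15 (SD, n = 5 each), a difference of 0.02 with a 95% interval of -0.20 to 0.24. Over the 2 unmarked values per group the signs were the other way, at 0.02 for this Slc25a4 probe and -0.01 for Slc25a5.

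**Figure D3:**
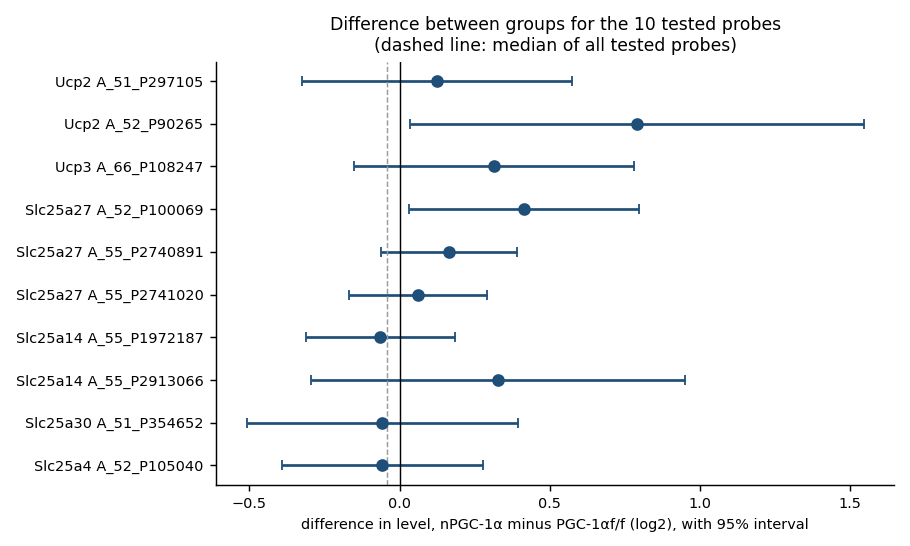
Difference in level, nPGC-1α minus PGC-1αf/f, in log2, for the 10 tested probes, with 95% intervals from limma. The solid line is 0 and the dashed line is the median of all 39142 tested probes, -0.04. The intervals of Ucp2 A_52_P90265 (0.04 to 1.55) and Slc25a27 A_52_P100069 (0.03 to 0.80) lie above 0, and those of the other 8 probes include 0.

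Whether probes of 1 gene disagreed was tested by taking the difference between 2 probes on each array and comparing the groups, over the 5 pairs of tested probes. None passed an exact permutation test (two-sided, smallest p possible 0.00794). For Ucp2, A_52_P90265 minus A_51_P297105 was -2.63 ± 0.77 in PGC-1αf/f and -1.96 ± 0.30 in nPGC-1α mice (SD, n = 5 each), a shift of 0.67 (exact p = 0.111, adjusted p = 0.225 over 5 pairs). For Slc25a27, A_52_P100069 shifted by 0.25 against A_55_P2740891 (exact p = 0.103, adjusted p = 0.225) and by 0.35 against A_55_P2741020 (exact p = 0.135, adjusted p = 0.225), while the latter pair shifted by 0.10 (exact p = 0.579). For Slc25a14 the shift was 0.39 (exact p = 0.341, adjusted p = 0.427). Without nPGC-1α replicate 5, both pairs with A_52_P100069 reached an exact p of 0.0238 (adjusted p = 0.0595), and without PGC-1αf/f replicate 4 the Ucp2 pair reached 0.0159 (adjusted p = 0.0794). Without PGC-1αf/f replicate 5 the shift was 0.38 for Ucp2 (exact p = 0.214) and 0.12 for Slc25a14 (exact p = 0.683), and without PGC-1αf/f replicate 3 that of Slc25a14 was 0.65 (exact p = 0.0635).

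**Figure D4:**
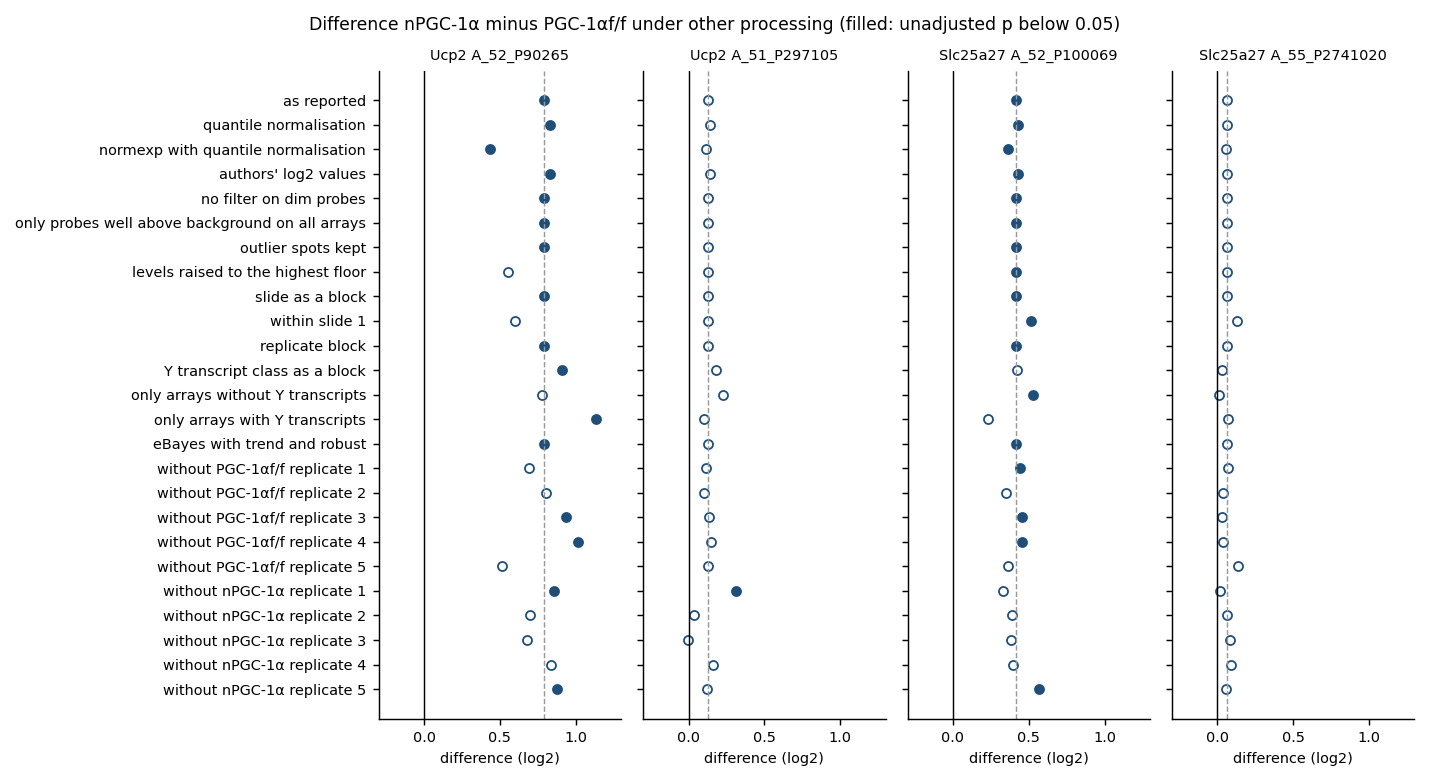
Difference in level, nPGC-1α minus PGC-1αf/f, in log2, for both Ucp2 probes and for 2 probes of Slc25a27 as reported (top) and under 24 other ways of processing or choosing the arrays. Filled points have an unadjusted limma p below 0.05 and the dashed line is the value as reported. Ucp2 A_52_P90265 ranged from 0.43 to 1.14 and Slc25a27 A_52_P100069 from 0.23 to 0.57, while Ucp2 A_51_P297105 fell to -0.01 without nPGC-1α replicate 3.

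Among the other mitochondrial carriers, a list of 44 genes, 40 were tested by their brightest tested probe and 0 passed an adjusted p of 0.05 in limma, where 0.00568% of all tested genes, that is 1 gene, did. At an unadjusted p of 0.05, 0 were higher and 3 lower in nPGC-1α mice, beside 3.19% higher and 5.03% lower (8.22% in all) of the 17597 tested genes. With the mean of all tested probes of a gene in place of the brightest, 2 were higher and 2 lower. The list's median difference was -0.04, beside -0.02 for all tested genes. The 3 were Slc25a41, a calcium-independent carrier of ATP and phosphate, at -0.61 ± 0.14 (SE, adjusted p = 0.153), Slc25a34 at -0.49 ± 0.14 (adjusted p = 0.207) and Slc25a54. The last was well above background on all 5 PGC-1αf/f arrays and on no nPGC-1α array. It was thus tested only through the group where it is high. Its PGC-1αf/f mean lay 1.18-fold above the mean floor of the nPGC-1α arrays, a bound that leaves out the spread of the samples. The groups overlapped, and the adjusted threshold was not passed (adjusted p = 0.369). Slc25a41 also passed the filter only through PGC-1αf/f mice, being well above background on 4 of 5 nPGC-1α arrays. In the other direction, the lowest p belonged to Slc25a35 at 0.23 ± 0.13 (adjusted p = 0.497), the glutamate carrier Slc25a22 at 0.36 ± 0.22 (adjusted p = 0.547) and the citrate carrier Slc25a1 at 0.11 ± 0.09 (adjusted p = 0.640).

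Genes of ADP/ATP exchange and ATP synthesis were mostly bright, with 23 of the 28 tested in the brightest of 10 equal classes of all tested probes. Of 30 genes 28 were tested, 0 passed an adjusted or an unadjusted p of 0.05 in limma, 3 were above 0 and the median difference was -0.10 (-0.08 with the mean of all tested probes of a gene), with the ends at -0.21 and 0.13, beside -0.06 for all tested probes in the brightest class. The lowest p below 0 belonged to Atp5b, the catalytic beta subunit of ATP synthase, at -0.17 ± 0.10 (SE, adjusted p = 0.529), the ATP synthase subunit gene Atp5l at -0.17 ± 0.11 (adjusted p = 0.563) and Vdac1, the main pore of the outer membrane, at -0.13 ± 0.09 (adjusted p = 0.597). The 3 above 0 were Ppif, which encodes cyclophilin D, at 0.13 ± 0.13, Tspo at 0.06 ± 0.26 and the hexokinase gene Hk1 at 0.03 ± 0.12 (adjusted p = 0.711, 0.940 and 0.944).

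Regulators of the uncoupling protein genes and their companions numbered 17, of which 16 were tested. In limma 0 passed an adjusted or an unadjusted p of 0.05, 8 were above 0 and the median difference was -0.01. The nuclear receptor gene Pparg was at 0.31 ± 0.20 (SE, adjusted p = 0.568), Cpt1a at 0.11 ± 0.10 (adjusted p = 0.662) and Prdm16 at 0.14 ± 0.17 (adjusted p = 0.776). Below 0 were Ppara at -0.18 ± 0.12 (adjusted p = 0.570), Esrra, the estrogen-related receptor alpha, at -0.07 ± 0.10 (adjusted p = 0.796) and the mitochondrial deacetylase gene Sirt3 at -0.05 ± 0.11 (adjusted p = 0.867).

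For each member gene with a tested probe, the probes of other named genes with the most similar course over the 10 arrays were looked up for its brightest tested probe, among probes that were well above background on all arrays with no missing value. They are a description, since the highest of so many correlations over so few arrays is large in any case. Ucp2 A_51_P297105 was closest to Cemip2 (r = 0.921), Mmp2 (0.912) and Phykpl (0.890). Ucp3 was closest to Phf21a (r = 0.980), Gpr37l1 (0.968) and Tmbim1 (0.968). Slc25a27 A_55_P2741020 was closest to Atg2a (r = 0.972), Tmem191c (0.961) and Slc44a2 (0.960), and Slc25a14 A_55_P1972187 to Rubcn (0.980), Smarca2 (0.979) and Pnma2 (0.977). Slc25a30 was closest to Rexo2 (r = 0.972), Gm5069 (0.945) and Pop7 (0.938). For Slc25a4, with values on only 6 arrays, the closest were Tti2 (r = 0.995), Serinc1 (0.990) and Tbc1d24 (0.990).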

How the data were processed

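Total RNA of the hippocampus was hybridised to 1-colour (Cy3) Agilent mouse arrays. The deposited scanner files hold the processed intensity of each spot, which the authors' Feature Extraction software (11.5.1.1 per the file headers) had background-subtracted but not scaled between arrays. A second deposited table holds the authors' log2 values for 41606 probes, made with GeneSpring, and its scaling is not stated in the sources used here. Its column medians are 9.92 to 9.93, and each column correlated with its own array at 0.999 to 1.0. It served as an alternative.

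Control spots and outlier spots were left out, and 0 spots were saturated. Spots of 1 probe were averaged in log2 and the array's 75th percentile was subtracted. A probe was tested when at least 1 group had it well above background on each of its 5 arrays and both groups had 3 or more values, which held for 39142 of 56605 probes. The test was that of limma 3.58.1 (R 4.3.3) on the group alone, two-sided, with Benjamini-Hochberg adjustment. A RefSeq table of GRCm38.p6 named 33767 probes (59.7%) by accession. The arrays were designed on another build, so no coordinates of probes are given. The brightest tested probe stood for a gene in lists. Single values were compared by exact permutation tests, and correlations used 100000 permutations (Python 3.11.15).

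Where all arrays of a group had a probe not well above background, only a bound is given: the other group's mean against the mean floor of the dim arrays, the floor being the lowest level of any probe well above background or the probe's own level if that is higher. Members, lists and tests were chosen with earlier results of these data known. The text names all 8 members with every probe, the 3 genes with the lowest p in each direction of each list, and for each tested member the 3 probes with the highest r. Replicates are separate mice as far as the labels say, and the number of arrays limits the precision. On data simulated with the spread of these 39142 probes, 72.0% of 200 probes changed by 1 on the log2 scale and 93.5% of those changed by 2 were called, and 0 probes were called with none changed. The 200 were drawn at random from all tested probes, and each probe varied independently. These shares are therefore averages and not those of the member probes, whose standard errors ran from 0.10 (Slc25a27 A_55_P2740891) to 0.34 (Ucp2 A_52_P90265). Alternatives covered background correction, scaling, filters, slide, Y-linked transcripts and leaving out each array. The alternative named normexp used an offset of 50 and was followed by quantile normalisation.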

Additional observations from a re-analysis of the deposited data

Results flagged for a closer look

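In 22 groups of 5 values, those of the 11 member probes without a missing value,, 2 held a sample far from the others by Dixon's criterion, which by chance marks about 1 in 20 groups. On Slc25a27 A_52_P100069, nPGC-1α replicate 5 had a level of -3.58, while the other nPGC-1α samples lay between -2.90 and -2.64. On Slc25a30 A_52_P656860, PGC-1αf/f replicate 5 had a level of -8.05, while the other PGC-1αf/f samples lay between -6.69 and -6.55. Both samples were on slide 2, and whether the slide or these mice had a part in the values was not tested.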

How the results depend on the processing

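In every alternative 0 member probes passed an adjusted p of 0.05. The count at an unadjusted p of 0.05 (2 as reported) was 1 with levels raised to the highest floor, within slide 1, with the Y transcript class as a block and over only the arrays with or without Y-linked transcripts, 0 by the exact Mann-Whitney test, and 0 to 3 with 1 array left out: 0 without PGC-1αf/f replicate 2 or 5 or nPGC-1α replicate 2, 3 or 4, 1 without PGC-1αf/f replicate 1, and 3 without PGC-1αf/f replicate 3 or nPGC-1α replicate 5. Among all probes, the 1 probe past the adjusted threshold became 0 with normexp, with only probes well above background on all arrays, with levels raised to the highest floor, with the slide, replicate or Y transcript class as a block, with eBayes trend and robust settings and by Mann-Whitney, 8 and 3 over only the arrays without and with Y-linked transcripts, 4619 without a filter on dim probes, and 0 to 4 with 1 array left out. Of all probes at an unadjusted p of 0.05, 28.5% were higher, against 38.5% with normexp and 63.2% without the filter. Same-numbered samples correlated at 0.08 to 0.36 in their deviations, 4 of 5 over 0.1, and 2 pairs correlated best with each other. The numbers were not taken to pair the mice. On slide 1 such samples shared a column, and whether that had a part in the correlations was not tested. A replicate block left the count of member probes at 2 and that at the adjusted threshold at 0.

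Differences without a call changed sign for 5 probes and 1 probe pair. Slc25a30 A_51_P354652 (-0.06) was 0.0409 with quantile normalisation, 0.0352 with normexp, 0.0402 in the authors' values, 0.0416 with the floor, 0.0270 within slide 1, 0.0058 without arrays holding Y-linked transcripts and -0.1993 to 0.0978 with 1 array left out. Slc25a4 A_52_P105040 (-0.06) was 0.0043 with quantile normalisation, 0.0209 with normexp and 0.0831 in the authors' values. With outlier spots kept, Slc25a4 A_51_P108334 went from 0.0219 to -0.0030 and Slc25a5 A_66_P122231 from -0.0098 to 0.0209. Ucp2 A_51_P297105 was -0.0073 to 0.3144 and the Slc25a27 pair A_55_P2740891 minus A_55_P2741020 was -0.0025 to 0.1768 with 1 array left out. Probe pairs at an exact p of 0.05 (0 as reported) numbered 0 to 2 with 1 array left out. With the mean of all tested probes of a gene, the other mitochondrial carriers at an unadjusted p of 0.05 were 2 higher and 2 lower (0 and 3 as reported), and 1 regulator (0 as reported) reached an unadjusted p of 0.05. The cause of these changes was not tested. Signal over background limits Ucp1 and Slc25a30, and outlier marks limit Slc25a4 and Slc25a5.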
